A study of Mus musculus with 8 samples.

Results

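The spliceosome and SR protein genes were examined in splenic B cells of 8 diseased transgenic mice, in a table of read counts per gene symbol. Symbols were taken by name, as those that begin with Snrp, Lsm and a digit, Sf3a or Sf3b, Srsf, U2af or Prpf, and 61 of the 24902 symbols in the table matched. Of these, 59 had a value in all 8 mice and form the set described here. The 59 genes fell into 7 subfamilies, with 7 core Sm genes, 4 other Snrp genes, 13 Lsm genes, 9 genes of the SF3A and SF3B complexes, 10 Srsf genes, 3 U2af genes and 13 Prpf genes. All 59 passed the expression filter and were among the 13173 genes tested. The remaining 2 symbols were Snrpn, with no value in Eµ-PRMT5 mouse 1 and between 0 and 17 counts in the other 7 mice, and Srsf12, with a value only in Eµ-PRMT5 mouse 3 (10 counts) and Eµ-PRMT5/TCL1 mouse 3 (8 counts).

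In Eµ-PRMT5 mice (n = 4) the transgene is human PRMT5, and its VH promoter and Eµ enhancer, taken from the antibody heavy chain locus, restrict it to the B lineage from the immature stage on. Eµ-PRMT5/TCL1 mice (n = 3) carry this transgene together with human TCL1, also driven in B cells, and 1 Eµ-TCL1 mouse carries human TCL1 alone. All 8 mice therefore carry at least 1 transgene, and all had reached early removal criteria (ERC), the signs of illness at which a mouse is removed from the study. The labels give the strain of all as C57BL/6N, whereas the paper's methods place the Eµ-TCL1 mice used for the cross on C57BL/6J. Several founder lines of Eµ-PRMT5 mice were made, and no label states the line of a sequenced mouse. Both identifiers in the title of Eµ-PRMT5 mouse 2 are ones that the paper uses for a founder or its line. Ages were not given, and WT mice were not analysed here.

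Splicing is carried out by small nuclear ribonucleoproteins (snRNPs), each a small nuclear RNA held by proteins. The Sm proteins form a ring around the U1, U2, U4 and U5 RNAs, and the LSm proteins form the corresponding ring around U6 or, in another combination, around mRNA that is to be decapped. SF3A, SF3B and U2AF recognise the branch point and the 3′ splice site, PRP proteins act in the U4/U6.U5 tri-snRNP and in the steps of activation, and SR proteins bind exons and guide the choice of splice sites. PRMT5 dimethylates arginines in the arginine-glycine (RG) repeats of Sm proteins before the ring is assembled on the RNA, so the study of PRMT5-driven disease raises the question of how the genes of this machinery are expressed in these B cells.

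RG repeats make an Sm protein a substrate of PRMT5. A coding stretch of SmB and one of SmD3 are shown because they hold several pairs of an arginine codon followed by a glycine codon in the reference transcripts (GENCODE vM21, GRCm38), with those codon pairs in capitals. Snrpb is at chr2:130171414-130179403 on the minus strand and Snrpd3 at chr10:75517551-75537381 on the plus strand.
Snrpb, codons 110 to 150: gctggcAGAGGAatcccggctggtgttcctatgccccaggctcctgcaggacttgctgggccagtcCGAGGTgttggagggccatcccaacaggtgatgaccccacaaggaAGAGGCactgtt
Snrpd3, codons 95 to 121: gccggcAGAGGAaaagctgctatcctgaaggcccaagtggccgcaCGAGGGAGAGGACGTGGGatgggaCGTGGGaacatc
The stretch of Snrpd3, close to the end of its coding sequence, holds 5 pairs, some of them adjacent, and that of Snrpb, further from the end, holds 3 that stand apart. Over the whole coding sequence, Snrpb had 8 such pairs in 231 codons, Snrpd3 had 7 in 126 and Snrpd1 had 10 in 119, of which 9 followed each other directly. The other core Sm genes Snrpd2, Snrpe, Snrpf and Snrpg had 1 or 2 pairs each. Among the core Sm genes, most RG pairs were thus in Snrpb, Snrpd3 and Snrpd1. Arginine-serine pairs, in either order, numbered 23.5 per 100 codons in Srsf2, 23.1 in Srsf7, 21.8 in Srsf6 and 21.6 in Srsf4, down to 8.02 in Srsf11 and 4.05 in Srsf9. They were not particular to the SR genes, with 9.96 per 100 codons in Prpf38b, 7.37 in Prpf38a, 6.28 in U2af1 and 6.16 in Prpf4b. Among the core Sm genes the highest value was 3.26, in Snrpe.

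Promoter windows of 300 bases, from 250 before to 50 after each start, were available from RefSeq (GRCm38.p6) for 49 of the 59 genes, with 60 windows in all because some genes have several starts. The letters CCGGAAG or their reverse complement CTTCCGG, the core that ETS-family transcription factors bind, were present in 22 of the 60 windows (36.7%, 19 genes), in 16.5% of the 12894 windows of all genes tested and in 8.86% of all 32851 windows. The GC box GGGCGG, searched on both strands, was in 66.7% of the windows of these genes and in 57.3% of the windows of genes tested. The E-box CACGTG, the motif bound by MYC, was in 6 of the 60 windows and in 9.50% of the windows of genes tested, the letters CCAAT in 41.7% and 38.2% of windows, and TATAAA in 6.67% and 7.71%. A match is a description of the letters in the window and not of a bound site. The windows below, of 2 core Sm genes and 1 U2 snRNP gene, are printed as examples that hold the ETS letters, shown in capitals. Their genes were all lowest in the Eµ-TCL1 mouse, as described below, but so were genes without a match.
Snrpe, chr1:133610231-133610530, minus strand: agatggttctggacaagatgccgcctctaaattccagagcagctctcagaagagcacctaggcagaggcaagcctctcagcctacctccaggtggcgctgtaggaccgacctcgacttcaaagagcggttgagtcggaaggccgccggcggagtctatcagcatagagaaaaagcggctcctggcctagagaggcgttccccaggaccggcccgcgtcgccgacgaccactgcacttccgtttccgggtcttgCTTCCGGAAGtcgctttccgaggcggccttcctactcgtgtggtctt
Snrpg, chr6:86371290-86371589, plus strand: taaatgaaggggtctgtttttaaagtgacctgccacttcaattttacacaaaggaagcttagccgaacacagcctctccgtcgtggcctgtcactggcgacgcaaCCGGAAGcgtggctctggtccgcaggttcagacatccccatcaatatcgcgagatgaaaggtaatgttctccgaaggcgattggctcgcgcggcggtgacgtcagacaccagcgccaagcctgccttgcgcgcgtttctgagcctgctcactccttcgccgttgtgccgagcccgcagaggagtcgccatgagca
Snrpb2, chr2:143062819-143063118, plus strand: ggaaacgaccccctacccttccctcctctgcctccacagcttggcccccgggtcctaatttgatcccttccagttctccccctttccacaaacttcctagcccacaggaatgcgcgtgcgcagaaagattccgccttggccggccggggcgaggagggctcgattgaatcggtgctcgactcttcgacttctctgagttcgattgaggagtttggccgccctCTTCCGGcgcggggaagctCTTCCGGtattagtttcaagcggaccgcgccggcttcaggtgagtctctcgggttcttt
The windows of Snrpe and Snrpb2 held 2 matches each and that of Snrpg held 1. The 2 matches of Snrpe overlap in a single stretch read on both strands, and those of Snrpb2 stand apart. No match was found in the windows of Snrpd2, Snrpd3 or Snrpf, genes that were also lowest in the Eµ-TCL1 mouse.

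Library totals ranged from 3356297 counts in the Eµ-TCL1 mouse to 10252426 in Eµ-PRMT5 mouse 4, and counts were scaled by edgeR's TMM factors to CPM, counts relative to the size of the library. The B cell markers Cd79a, Cd79b, Ms4a1, Pax5 and Cd22 were detected in every mouse, and their summed level was 1562 to 4797 CPM across the Eµ-PRMT5 mice, 2418 to 6308 CPM in Eµ-PRMT5/TCL1 mice and 3362 CPM for the Eµ-TCL1 mouse, lowest in Eµ-PRMT5 mouse 4. The 8 neutrophil markers summed to 421 to 5219, 642 to 8997 and 587 CPM, the 6 macrophage markers to 107 to 734, 164 to 844 and 112 CPM, with C1qa, C1qb and C1qc at 0 or without a value in Eµ-PRMT5 mouse 1 and C1qa also in mouse 2. The 6 T cell markers summed to 64.8 to 263 CPM, 53.8 to 90.3 CPM and 105 CPM, with Cd4 or Cd8a at 0 or without a value in 2 mice. The 6 erythroid markers stayed under 331 CPM and the 4 NK markers under 40.0 CPM in every mouse. Eµ-PRMT5 mouse 1 stood apart, with a value for 16379 symbols against 20411 to 21475 in the other 7.

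Relative to the length of their exons, the most abundant of the 59 genes was Snrpb, at a mean of 213 CPM per kb of exon over the 8 mice, followed by Srsf5 (179), Lsm4 (122) and Srsf7 (108). The lowest was Lsm14b, at 2.19 CPM per kb. Among the core Sm genes, Snrpb was followed by Snrpe (57.4), Snrpd3 (44.3), Snrpg (36.9), Snrpd1 (30.3), Snrpd2 (24.3) and Snrpf (14.7 CPM per kb). These levels treat all annotated exons as transcribed, and in 18 of the 59 genes, 5 of the core Sm genes included (Snrpd1, Snrpd2, Snrpe, Snrpf and Snrpg), a stretch of at least 150 bases was at least 95% identical to another gene, mostly a pseudogene, so that reads may be split or lost. In 15 genes an exon was also shared with a gene on the other strand, and whether the counting used strand was not given in the sources used here.

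**Figure D1:**
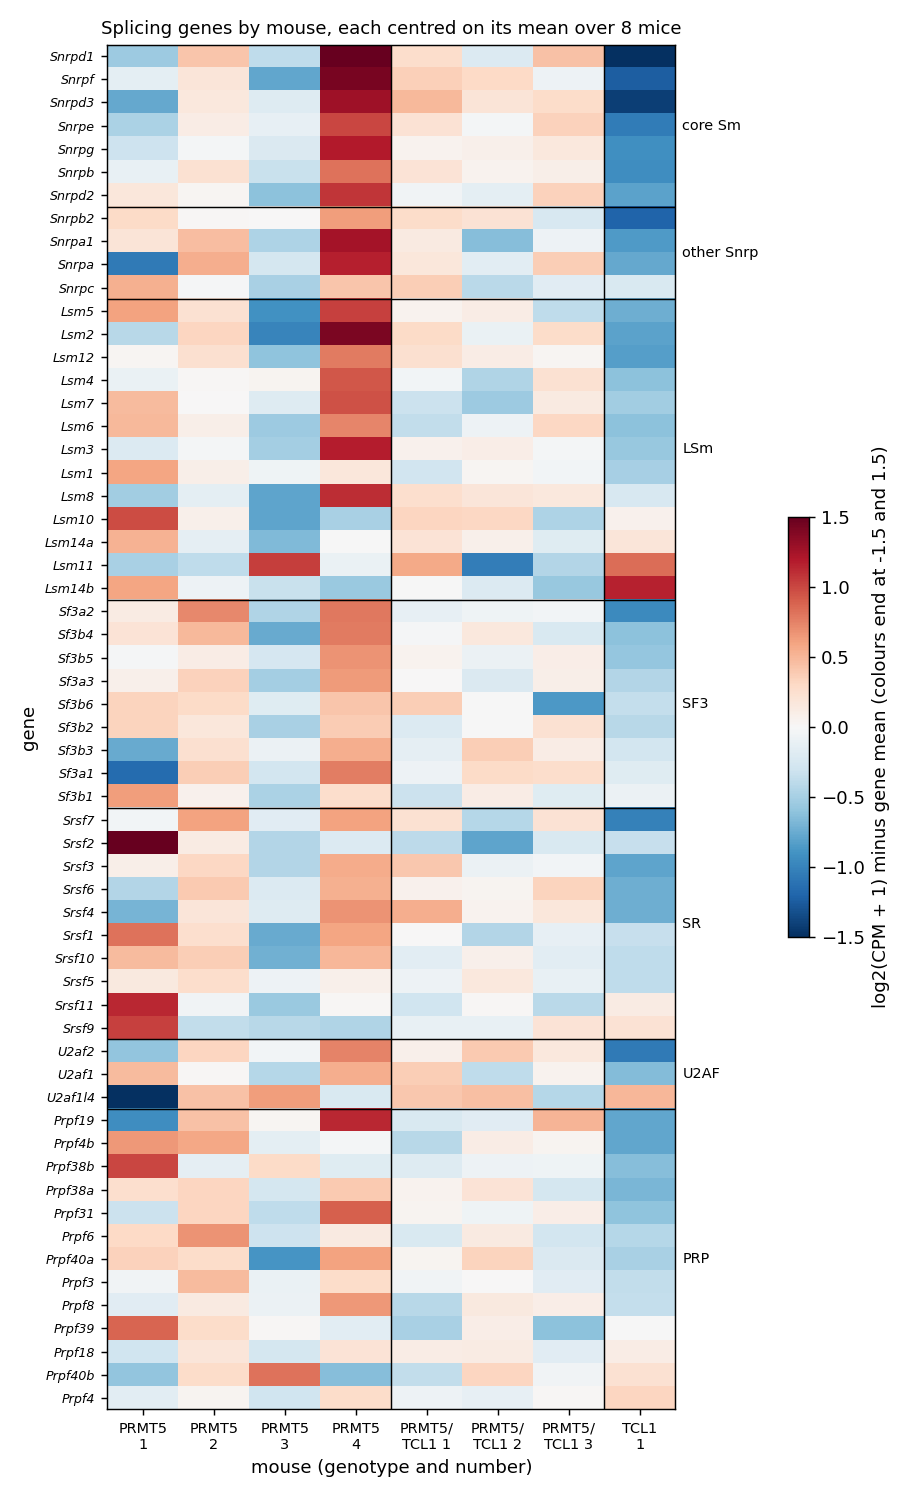
Each row is 1 of the 59 genes, grouped by subfamily, and each column is 1 mouse. Colour gives log2(CPM + 1) minus the gene's mean over the 8 mice, so red is above and blue below that mean. The column of Eµ-PRMT5 mouse 4 is mostly red and that of the Eµ-TCL1 mouse mostly blue, most deeply in the core Sm rows, while the 3 Eµ-PRMT5/TCL1 columns are pale.

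The first comparison asked whether adding TCL1 to PRMT5 changed these genes, and no gene passed the test in either direction. None of the 59 genes was called between the double-transgenic and the Eµ-PRMT5 mice at an adjusted p under 0.05 by edgeR's quasi-likelihood test, against a background of 0.0% of the 13173 genes tested. The smallest adjusted p among the 59 was 1.00. At an unadjusted p under 0.05, 0 of the 59 were higher (background 0.957%) and 1 was lower, Srsf2 (1.69%, background 1.21%), by edgeR. DESeq2 called 0 of the 59 at an adjusted p under 0.05 (background 0.0304%), and at an unadjusted p under 0.05 it gave 0 higher (background 1.11%) and 1 lower (background 1.88%). The median log2 fold change of the 59 was −0.21 and that of all genes tested was −0.09, with 49 of 59 (83.1%) below 0 against 59.4% of all genes. No gene of the 59 had all 3 Eµ-PRMT5/TCL1 mice above all 4 Eµ-PRMT5 mice (background 1.35%) or all 3 below all 4 (background 1.59%), although 10 (16.9%) were below without Eµ-PRMT5 mouse 3 (background 5.94%) and 3 (5.08%) were above without Eµ-PRMT5 mouse 4 (background 5.50%). The negative median rested on 1 mouse, since without Eµ-PRMT5 mouse 4 it was −0.03, with 32 genes below 0 and 27 above, and that of all genes was −0.07. As the samples are bulk RNA, fewer cells of a type and less RNA per cell cannot be told apart in any of these values.

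The comparison with Eµ-TCL1 had 1 mouse on one side, and its test asks only whether that mouse lay outside the spread of the replicated groups. Most of the 59 genes were lower in this mouse, and the core Sm genes furthest. None was called at an adjusted p under 0.05 by edgeR when it was set against either replicated genotype, with a background of 0.0% in both, and DESeq2 called 0 of the 59 in both, with backgrounds of 0.137% (18 genes) for Eµ-PRMT5 and 0.121% (16 genes) for Eµ-PRMT5/TCL1 mice. At an unadjusted p under 0.05 by edgeR, 6 of the 59 (10.2%) were higher in Eµ-PRMT5 mice than in the Eµ-TCL1 mouse, namely Snrpd1, Snrpd3, Snrpb2, Sf3a2, Srsf7 and U2af2, against a background of 1.96%, and 0 were lower against 4.82%. DESeq2 gave 11 higher (18.6%, background 4.90%) and 0 lower (background 3.64%). The edgeR number was 3 without any 1 of the Eµ-PRMT5/TCL1 mice (backgrounds 1.18% to 1.46%) or without Eµ-PRMT5 mouse 2 (background 1.55%), 12 without Eµ-PRMT5 mouse 1 (background 4.51%) and 14 without Eµ-PRMT5 mouse 3 (background 3.89%). For Eµ-PRMT5/TCL1 mice, 4 (6.78%) were higher, namely Snrpd1, Snrpd3, Snrpb2 and U2af2, against a background of 1.75%, and 0 were lower against 4.33%. DESeq2 gave 5 higher (8.47%, background 3.61%) and 0 lower (background 3.45%). Here the edgeR number was 0 without Eµ-PRMT5/TCL1 mouse 1 (background 1.09%) and 1 without mouse 2 (1.14%) or mouse 3 (1.55%) of that genotype. It was 2 without Eµ-PRMT5 mouse 2 (1.58%) and 7 without Eµ-PRMT5 mouse 4 (3.61%), so it moved with mice of both genotypes. The median log2 fold change of the 59 was 0.50 to 0.53 without each Eµ-PRMT5/TCL1 mouse in turn. Both comparisons share the same Eµ-TCL1 mouse.

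Over this mouse, the median log2 fold change of the 59 genes was 0.84 for Eµ-PRMT5 mice, against 0.04 for all genes tested, and 0.56 for Eµ-PRMT5/TCL1 mice, against −0.07. By subfamily, the medians for Eµ-PRMT5 mice were 1.31 for core Sm genes, 1.23 for the other Snrp genes, 0.85 for Lsm genes, 0.60 for SF3 genes, 0.77 for Srsf genes, 0.86 for U2af genes and 0.67 for Prpf genes. In the same order they were 1.25, 0.81, 0.46, 0.41, 0.34, 0.70 and 0.32 for Eµ-PRMT5/TCL1 mice. The Eµ-TCL1 mouse was below all the other 7 mice in 29 of the 59 genes (49.2%, background 14.2%) and above all 7 in 2, Lsm14b and Prpf4 (3.39%, background 21.3%). All 7 core Sm genes were among the 29. The median of all genes in these comparisons moved with the scaling, from 0.04 to −0.21 and from −0.07 to −0.30 with library size only, and relative to it the 59 genes were higher by 0.80 and 0.63 with TMM scaling and by 0.76 and 0.63 with library size only. This library was the shallowest of the 8, and the part of depth and of this mouse's cell content in the difference was not tested.

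**Figure D2:**
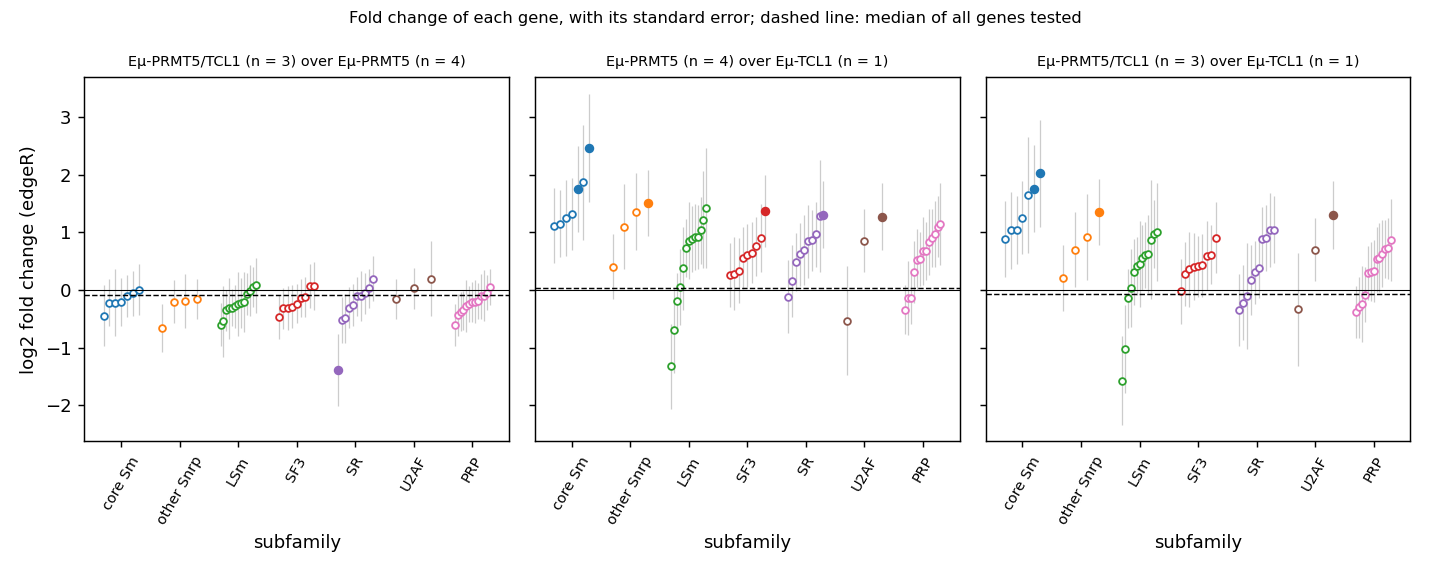
The 3 panels plot the log2 fold change of each of the 59 genes by subfamily, with bars of 1 standard error, for Eµ-PRMT5/TCL1 over Eµ-PRMT5 mice and for each of these genotypes over the 1 Eµ-TCL1 mouse. Filled points have an unadjusted edgeR p under 0.05 and the dashed line is the median of all genes tested (−0.09, 0.04 and −0.07). In the left panel 49 of the 59 points lie below 0, and the 1 filled point, Srsf2, is the lowest at −1.39. All core Sm points lie above the dashed line in the other 2 panels.

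The core Sm genes encode the ring itself. Snrpd1, which encodes SmD1 with the long RG run, measured 33.9, 67.1, 38.1 and 173 CPM in Eµ-PRMT5 mice 1 to 4, 60.3, 43.3 and 68.2 CPM in Eµ-PRMT5/TCL1 mice 1 to 3, and 14.1 CPM (52 counts) for the Eµ-TCL1 mouse. The Eµ-PRMT5/TCL1 values were inside the Eµ-PRMT5 range, in which mouse 4 was far above the rest, and the Eµ-TCL1 mouse was below all 7. The log2 fold change was −0.45 (standard error 0.53, edgeR adjusted p = 1.00) between the replicated genotypes, 2.47 (0.94, edgeR adjusted p = 0.709) for Eµ-PRMT5 over the Eµ-TCL1 mouse and 2.02 (0.92, edgeR adjusted p = 0.778) for Eµ-PRMT5/TCL1 over it.

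Snrpd3, which encodes SmD3, measured 78.1, 149, 117 and 324 CPM across the Eµ-PRMT5 mice, 188, 154 and 162 CPM in Eµ-PRMT5/TCL1 mice and 49.5 CPM for the Eµ-TCL1 mouse. Both replicated groups had nearly the same mean, 167 ± 109 CPM (SD, n = 4) and 168 ± 17.9 CPM (SD, n = 3), and they differed in the width of their spread. Snrpd3 was higher than in the Eµ-TCL1 mouse by a log2 fold change of 1.76 in both (edgeR adjusted p = 0.709 and 0.778). An exon of Snrpd3 shares 232 bases with Gucd1 on the other strand. Snrpb, which encodes SmB, measured 372, 469, 316 and 702 CPM, then 461, 414 and 425 CPM, and 209 CPM for the Eµ-TCL1 mouse. The mean was 465 ± 170 CPM (SD, n = 4) without and 433 ± 24.7 CPM (SD, n = 3) with the TCL1 transgene.

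The 4 core Sm genes with few RG pairs had the same shape across mice. Snrpd2 (SmD2) measured 66.4, 60.2, 38.3 and 125 CPM across the Eµ-PRMT5 mice, 57.0, 53.5 and 75.4 CPM in Eµ-PRMT5/TCL1 mice and 33.5 CPM for the Eµ-TCL1 mouse. Snrpe (SmE) measured 52.4, 78.7, 67.0 and 148 CPM, then 85.1, 71.5 and 92.8 CPM, and 34.9 CPM. In both, mouse 4 was the highest of the 8 and the Eµ-TCL1 mouse the lowest. Snrpf (SmF) measured 9.74, 12.5, 5.93 and 30.9 CPM, then 14.3, 13.7 and 10.3 CPM, and 4.06 CPM, the last from 15 counts. Snrpg (SmG) measured 42.8, 52.1, 45.8 and 123 CPM, then 55.6, 56.3 and 59.5 CPM, and 27.9 CPM. Between the replicated genotypes the log2 fold changes of these 4 genes lay between −0.23 and −0.06 with standard errors of 0.39 to 0.58, and against the Eµ-TCL1 mouse they lay between 1.11 and 1.87 for Eµ-PRMT5 mice, with no unadjusted p under 0.05 by edgeR, whereas DESeq2 gave one under 0.05 for Snrpe and Snrpf. The direction between the replicated genotypes was not stable, because all 7 core Sm genes had a fold change above 0 once Eµ-PRMT5 mouse 4 was left out, and 6 of them, all but Snrpd3, had been below 0 with it. The sign of Snrpd3 also reversed under DESeq2 and RLE scaling, and that of Snrpe under upper-quartile scaling and library size only.

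**Figure D3:**
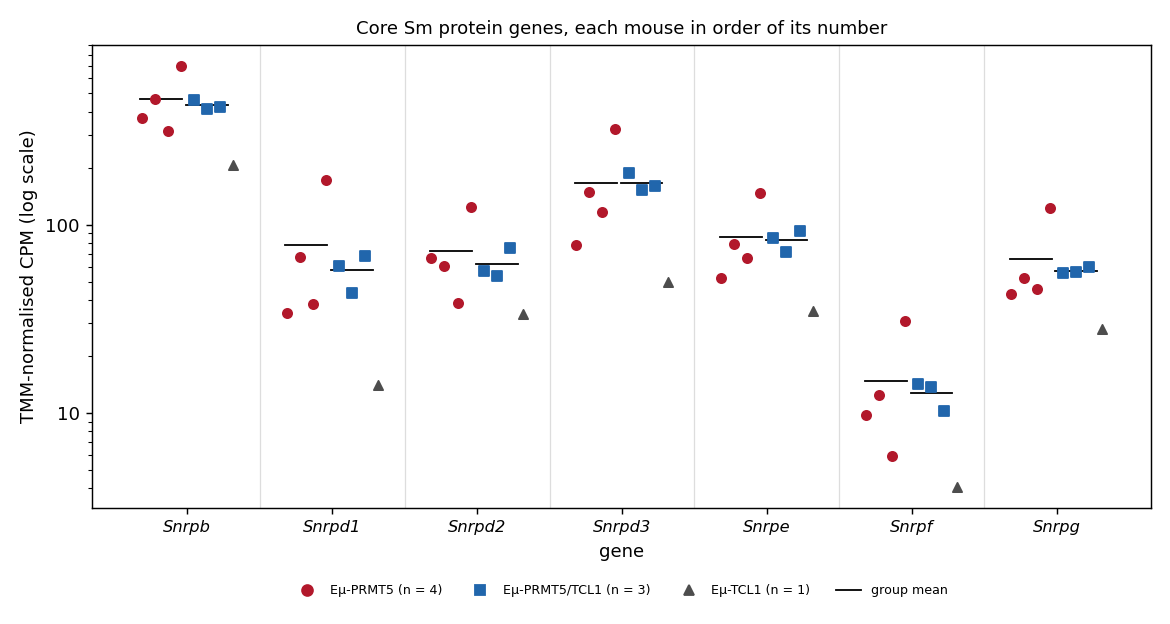
TMM-normalised CPM on a log scale for the 7 core Sm genes in each mouse, placed left to right in the order of the mouse numbers, with a line at the mean of each replicated genotype. In every gene the Eµ-TCL1 triangle is the lowest point and the fourth Eµ-PRMT5 circle the highest, from 14.1 to 173 CPM for Snrpd1.

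Of the other snRNP proteins, Snrpb2 encodes U2-B″, a U2 snRNP protein. It measured 48.1, 39.7, 39.4 and 61.0 CPM across the Eµ-PRMT5 mice, 47.7, 45.8 and 32.9 CPM in Eµ-PRMT5/TCL1 mice and 16.5 CPM (61 counts) in the Eµ-TCL1 mouse. The other 7 mice lay close together and well above it, with a log2 fold change of 1.51 (standard error 0.57, edgeR adjusted p = 0.709) for Eµ-PRMT5 mice, the smallest edgeR p of the 59, and 1.35 (0.58, edgeR adjusted p = 0.778) for Eµ-PRMT5/TCL1 mice. Snrpa1, which encodes its partner U2-A′, measured 135, 164, 85.7 and 284 CPM, then 130, 75.5 and 112 CPM, and 65.2 CPM. It had the largest difference of this subfamily between the replicated genotypes, at −0.66 (standard error 0.42, edgeR adjusted p = 1.00). Snrpc, which encodes the U1 snRNP protein U1-C, measured 69.2, 47.0, 33.5 and 63.6 CPM, then 61.8, 35.6 and 42.0 CPM, and 40.3 CPM, so here the Eµ-TCL1 mouse fell among the others. Snrpa, the gene of U1-A, ranged from 53.6 CPM in Eµ-PRMT5 mouse 1 to 256 CPM in mouse 4.

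The Lsm genes were less uniform than the Sm genes. The Eµ-TCL1 mouse was the lowest of the 8 in 5 of the 13, Lsm1, Lsm3, Lsm4, Lsm6 and Lsm12, and Eµ-PRMT5 mouse 3 was the lowest in another 5. Lsm14a, the Lsm gene of highest CPM, measured 190, 120, 83.2 and 132 CPM across the Eµ-PRMT5 mice, 153, 139 and 117 CPM in Eµ-PRMT5/TCL1 mice and 151 CPM for the Eµ-TCL1 mouse, with overlapping groups. Lsm7, part of both the nuclear and the cytoplasmic LSm ring, measured 91.5, 66.0, 57.2 and 128 CPM, then 52.1, 44.8 and 71.9 CPM, and 45.4 CPM, a log2 fold change of −0.61 between the replicated genotypes (standard error 0.37, edgeR adjusted p = 1.00). Lsm5, another subunit of both rings, was low, at 7.71, 5.70, 2.05 and 10.6 CPM, then 4.92, 5.15 and 3.38 CPM, and 2.43 CPM (9 counts). Its log2 fold change of −0.55 had a standard error of 0.62. The 2 Lsm genes particular to the U7 snRNP, which processes histone mRNA, did not follow the core Sm genes. Lsm10 was highest in Eµ-PRMT5 mouse 1, at 112 CPM, with 31.9 to 70.2 CPM elsewhere, and Lsm11 was highest in Eµ-PRMT5 mouse 3, at 46.7 CPM, followed by the Eµ-TCL1 mouse at 40.5 CPM. Lsm14b, a paralogue of Lsm14a, was highest in the Eµ-TCL1 mouse, at 14.1 CPM (52 counts) against 3.53 to 9.13 CPM in the other 7, and was the lowest of the 59 in fold change over it, at −1.33 for Eµ-PRMT5 mice (standard error 0.74, edgeR adjusted p = 0.709).

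In the SF3 subfamily, Sf3b1, which encodes the SF3B subunit at the branch point and is recurrently mutated in CLL, was the most abundant. It measured 1033, 695, 481 and 797 CPM across the Eµ-PRMT5 mice, 534, 720 and 587 CPM in Eµ-PRMT5/TCL1 mice and 624 CPM for the Eµ-TCL1 mouse. The groups overlapped and the Eµ-TCL1 mouse lay inside the range of both, with a log2 fold change of −0.29 between the replicated genotypes (standard error 0.37, edgeR adjusted p = 1.00). Sf3a2, a subunit of SF3A, measured 43.2, 65.9, 28.7 and 69.4 CPM, then 36.2, 38.0 and 38.6 CPM, and 20.01 CPM. Its 3 Eµ-PRMT5/TCL1 values were within 37.6 ± 1.22 CPM (SD, n = 3), inside the wider Eµ-PRMT5 range, and the Eµ-TCL1 mouse was below all 7, by a log2 fold change of 1.37 for Eµ-PRMT5 mice (standard error 0.62, edgeR adjusted p = 0.709). An exon of Sf3a2 shares 429 bases with Plekhj1 on the other strand. Sf3b6, the branch-point contact known as p14, measured 95.2, 92.3, 66.6 and 101 CPM, then 97.4, 75.4 and 41.0 CPM, and 58.7 CPM, and it was 1 of the few genes whose spread was wider among Eµ-PRMT5/TCL1 mice.

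The U2af genes encode the pair of proteins that read the polypyrimidine tract and the AG of the 3′ splice site. U2af2, the large subunit, measured 60.1, 114, 88.7 and 154 CPM across the Eµ-PRMT5 mice, 96.1, 120 and 102 CPM in Eµ-PRMT5/TCL1 mice and 43.0 CPM (159 counts) in the Eµ-TCL1 mouse, below all 7. Its log2 fold change over the Eµ-TCL1 mouse was 1.28 (standard error 0.58, edgeR adjusted p = 0.709) and 1.30 (0.59, edgeR adjusted p = 0.778) for the 2 genotypes. U2af1, the small subunit, measured 182, 132, 96.9 and 191 CPM, then 169, 100.1 and 136 CPM, and 83.0 CPM, again lowest in the Eµ-TCL1 mouse, but its unadjusted p was not under 0.05 by edgeR or DESeq2 in either comparison. U2af1l4, a paralogue of U2af1, was not lowest in the Eµ-TCL1 mouse, where it measured 10.5 CPM. Its lowest value was 1.42 CPM (7 counts) in Eµ-PRMT5 mouse 1, against 10.1, 11.6 and 6.00 CPM in mice 2 to 4. In Eµ-PRMT5/TCL1 mice it measured 9.84, 10.2 and 5.07 CPM. It shares 1086 exon bases with another gene on the same strand, Gm49396, and 119 with Psenen on the other.

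The SR genes were divided in the mouse with the highest level, which was Eµ-PRMT5 mouse 4 in 5 of the 10, mouse 1 in 4 (Srsf1, Srsf2, Srsf9 and Srsf11) and mouse 2 in 1 (Srsf5). Srsf2, which encodes the exon-binding SR protein SC35, at chr11:116849901-116853094 on the minus strand, measured 280 CPM in Eµ-PRMT5 mouse 1 and 61.9, 41.5 and 49.1 CPM in mice 2 to 4. It measured 43.0, 32.5 and 48.2 CPM in Eµ-PRMT5/TCL1 mice and 44.3 CPM for the Eµ-TCL1 mouse. A single mouse was thus far above the other 7, which lay close together. The log2 fold change of −1.39 (standard error 0.63, edgeR adjusted p = 1.00) had the 1 unadjusted edgeR p under 0.05 between the replicated genotypes, and it was −0.29 without that mouse. Exons of Srsf2 share 748 bases with Mettl23 and Mfsd11 on the other strand. Srsf9 had the same shape, at 91.5 CPM for Eµ-PRMT5 mouse 1 and 32.2 to 51.6 CPM elsewhere, as did Srsf11, at 804 CPM against 250 to 400 CPM.

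Srsf5, the SR gene of highest level, measured 781, 849, 672 and 744 CPM across the Eµ-PRMT5 mice, 669, 790 and 655 CPM in Eµ-PRMT5/TCL1 mice and 542 CPM for the Eµ-TCL1 mouse. It varied little, with 761 ± 73.8 CPM (SD, n = 4) and 705 ± 74.5 CPM (SD, n = 3) in the replicated groups. Srsf7 measured 351, 548, 320 and 550 CPM, then 424, 268 and 418 CPM, and 179 CPM, below all 7, with a log2 fold change over the Eµ-TCL1 mouse of 1.31 for Eµ-PRMT5 mice (standard error 0.58, edgeR adjusted p = 0.709) and 1.05 for Eµ-PRMT5/TCL1 mice (0.59, edgeR adjusted p = 0.778). Srsf1, the founding SR protein gene, measured 102, 68.7, 33.7 and 87.5 CPM, then 57.7, 42.0 and 53.0 CPM, and 45.1 CPM, a log2 fold change of −0.52 (standard error 0.40, edgeR adjusted p = 1.00) between the replicated genotypes with overlapping groups. Srsf3, Srsf4, Srsf5, Srsf6 and Srsf7 were the 5 SR genes lowest in the Eµ-TCL1 mouse.

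**Figure D4:**
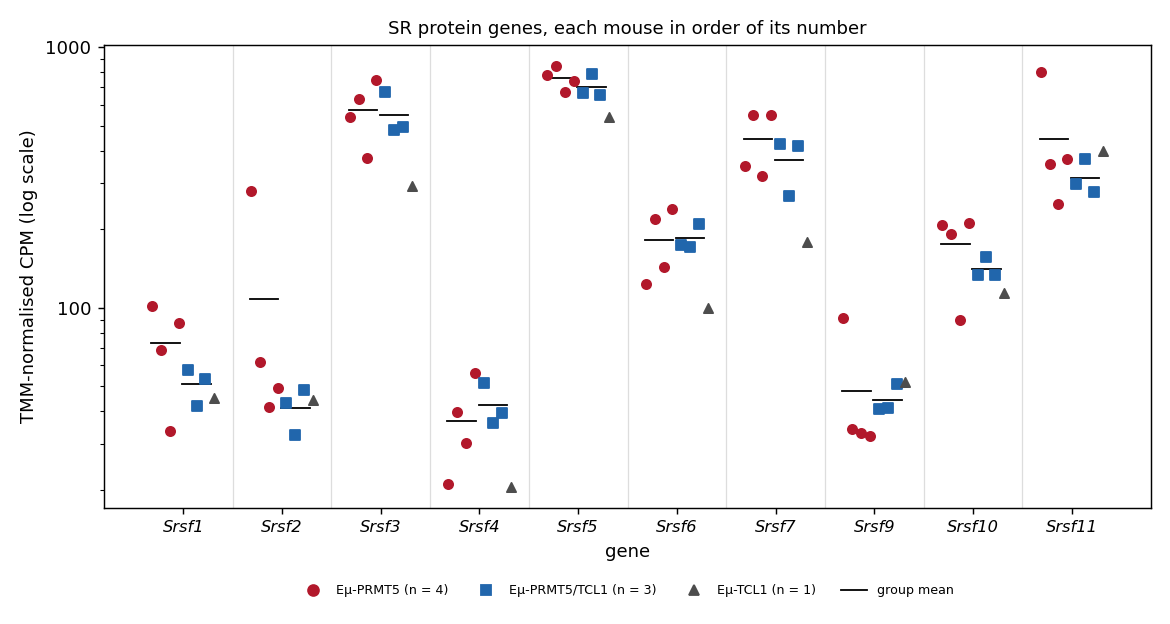
TMM-normalised CPM on a log scale for the 10 SR genes in each mouse, placed left to right in the order of the mouse numbers, with a line at the mean of each replicated genotype. For Srsf2, Srsf9 and Srsf11 the first Eµ-PRMT5 circle stands above the other points, at 280, 91.5 and 804 CPM, while for Srsf7 the Eµ-TCL1 triangle is lowest, at 179 CPM.

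Among the PRP genes, Prpf8, which encodes the large protein at the catalytic centre, measured 304, 374, 321.7 and 536 CPM across the Eµ-PRMT5 mice, 256, 380 and 365 CPM in Eµ-PRMT5/TCL1 mice and 266 CPM for the Eµ-TCL1 mouse. Here the Eµ-TCL1 mouse was not the lowest. Prpf39, which encodes a U1 snRNP-associated protein, measured 146, 96.6, 80.0 and 70.7 CPM, then 56.2, 85.1 and 51.3 CPM, and 79.2 CPM, and its log2 fold change of −0.62 between the replicated genotypes (standard error 0.36, edgeR adjusted p = 1.00) was the largest of the subfamily. Prpf38b, related to a factor of spliceosome activation, measured 387, 175, 236 and 170 CPM, then 168, 182 and 185 CPM, and 123 CPM, with Eµ-PRMT5 mouse 1 highest, and a log2 fold change of −0.44 (standard error 0.37, edgeR adjusted p = 1.00). Prpf4, a protein of the tri-snRNP, was highest in the Eµ-TCL1 mouse, at 132 CPM against 85.3 to 128 CPM.

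The mean log2 CPM of a subfamily summarised these patterns by mouse. For the core Sm genes it was 5.78, 6.26, 5.71 and 7.33 for the Eµ-PRMT5 mice, 6.32, 6.14 and 6.32 in Eµ-PRMT5/TCL1 mice and 4.91 in the Eµ-TCL1 mouse. The means of the replicated groups, 6.27 ± 0.75 (SD, n = 4) and 6.26 ± 0.11 (SD, n = 3), differed by less than their spread, and the Eµ-TCL1 mouse was lower than either by 1.36 and 1.35 on the log2 scale. For the SR genes it was 7.72, 7.45, 6.84 and 7.53, then 7.26, 7.08 and 7.22, and 6.80, so that here mouse 1 was the highest. The core Sm level minus the SR level was −1.94 in Eµ-PRMT5 mouse 1, −1.19 in mouse 2, −1.13 in mouse 3 and −0.20 in mouse 4, between −0.95 and −0.90 in the 3 Eµ-PRMT5/TCL1 mice and −1.89 in the Eµ-TCL1 mouse. This difference was therefore nearly the same in the 3 Eµ-PRMT5/TCL1 mice and varied among the Eµ-PRMT5 mice. Other pairs of subfamilies were less even, since relative to their own means over the 8 mice the other Snrp genes were at 0.24, −0.25 and −0.03 in Eµ-PRMT5/TCL1 mice 1 to 3 and the PRP genes at −0.17, 0.08 and −0.08. The other subfamilies, LSm, SF3, U2AF, PRP and the other Snrp genes, differed between the replicated groups by −0.22 to 0.14 on the log2 scale, within the SD of Eµ-PRMT5 mice for each.

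**Figure D5:**
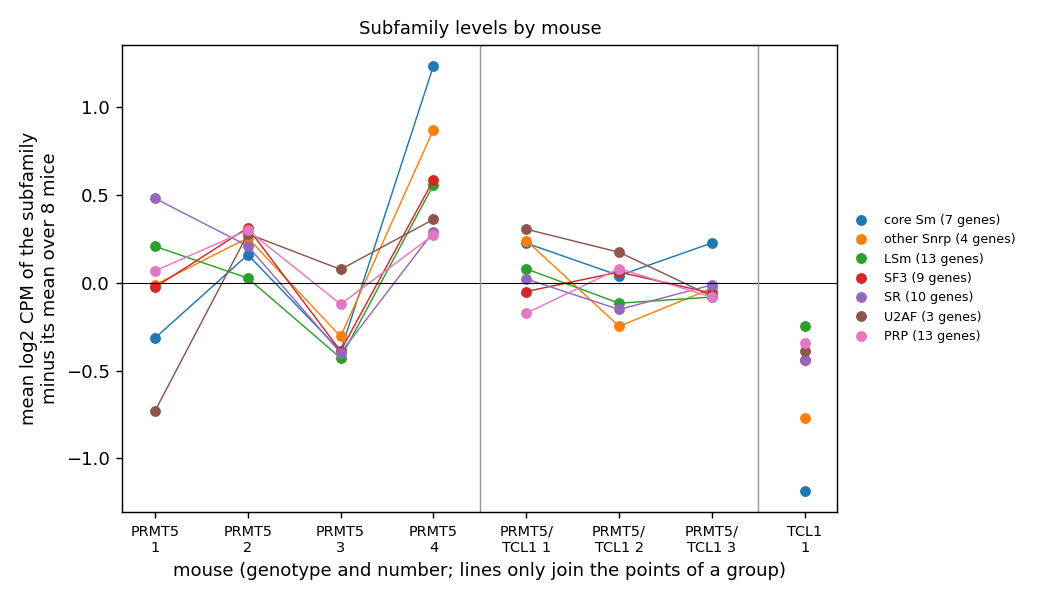
Mean log2 CPM of each subfamily minus its own mean over the 8 mice, by mouse. Each colour is 1 subfamily, and lines only join the mice of a genotype. The core Sm points run from the highest in Eµ-PRMT5 mouse 4 to the lowest in the Eµ-TCL1 mouse. In the 3 Eµ-PRMT5/TCL1 mice the points of all subfamilies stay between −0.25 and 0.31.

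The 59 genes varied more among Eµ-PRMT5 mice than among Eµ-PRMT5/TCL1 mice. The SD of log2 CPM was larger among the 4 Eµ-PRMT5 mice in 56 of the 59 genes (94.9%), with a median SD of 0.57 against 0.24. For all 13173 genes tested the share was 77.2% and the medians were 0.66 and 0.36, so a wider spread in Eµ-PRMT5 mice was general. For the 5873 genes tested within the 10th to 90th percentile of the level of the 59, the share was 78.3%. Their medians were 0.54 and 0.29. Without each Eµ-PRMT5 mouse in turn the number was 47 to 56 of 59 (79.7% to 94.9%), against 68.8% to 77.1% of all genes. Eµ-PRMT5 mouse 4 had the highest value of the 8 in 39 of the 59 genes (66.1%), against 20.1% of all genes tested, and in all 7 core Sm genes. Mouse 1 was highest in 12 (20.3%), against 19.3%, and no gene of the 59 was highest in an Eµ-PRMT5/TCL1 mouse, against 5.77% to 6.38% of all genes for each of these mice. The proliferation markers Mki67, Top2a, Birc5, Cdk1, Ccnb1, Ccna2, Mcm2, Mcm5 and Pcna moved with mouse 4 as well. Their summed level was 568, 499, 880 and 4609 CPM in Eµ-PRMT5 mice 1 to 4, 1776, 1037 and 2351 CPM in Eµ-PRMT5/TCL1 mice and 708 CPM for the Eµ-TCL1 mouse. All 9 were highest in mouse 4. In the Eµ-TCL1 mouse Mcm2 (42.2 CPM against 98.5 CPM or more) and Pcna (94.6 CPM against 135 CPM or more) were below the other 7 mice, and the remaining 7 markers were not the lowest of the 8. Mouse 4 also had the lowest summed B cell markers of the 8 mice and the highest summed neutrophil and macrophage markers of its genotype. Its library was the deepest, and the mean log2 CPM of the 59 genes was 6.97 in it. That mean was 6.11 in Eµ-PRMT5 mouse 3 and 5.94 in the Eµ-TCL1 mouse, the shallowest libraries (3987989 and 3356297 counts). The libraries between did not rank by depth. Eµ-PRMT5 mouse 3 was lowest in 15 of the 59 genes (25.4%, background 14.3%). The part of proliferation, of cell content and of depth in the splicing gene levels of these mice was not tested.

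The enzyme and its partners were measured beside their substrates. Prmt5, the mouse gene, measured 128, 171, 62.7 and 234 CPM across the Eµ-PRMT5 mice, 110.0, 115 and 126 CPM in Eµ-PRMT5/TCL1 mice and 79.5 CPM for the Eµ-TCL1 mouse. The transgene is the human sequence and how its reads were counted was not given in the sources used here, so this row does not check the labels. Wdr77, which encodes the MEP50 cofactor of PRMT5, measured 29.6, 80.3, 53.6 and 59.4 CPM, then 28.4, 34.2 and 42.0 CPM, and 19.7 CPM, with log2 fold changes of −0.68 between the replicated genotypes (standard error 0.40, edgeR adjusted p = 1.00) and 1.497 for Eµ-PRMT5 over the Eµ-TCL1 mouse (standard error 0.64, edgeR adjusted p = 0.709). Wdr77 shares 1389 exon bases with Gm42890 on the same strand and 337 with Atp5f1 on the other. Clns1a, which encodes pICln, the chaperone that brings Sm proteins to PRMT5, measured 165, 219, 110 and 273 CPM, then 164, 175 and 189 CPM, and 88.4 CPM, the lowest of the 8. Eµ-PRMT5 mouse 4 was highest and the Eµ-TCL1 mouse lowest for Clns1a, as for the Sm genes.

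Further lists of splicing genes, taken from general knowledge of the machinery, were read in the same way, and all of their genes were tested. Of the 14 methylosome and snRNP assembly genes, 0 were called in any comparison by edgeR, and at an unadjusted p under 0.05 Wdr77 was higher and Coprs, a histone adaptor of PRMT5, lower in Eµ-PRMT5 mice than in the Eµ-TCL1 mouse, with a list median of 0.46, and Coprs was also lower in Eµ-PRMT5/TCL1 mice (−1.99). Coprs was 25.1 CPM for the Eµ-TCL1 mouse and 5.01 to 12.8 CPM in the other 7. Of the 18 other snRNP proteins, Eftud2, a U5 GTPase, was higher (1.39) and Ddx23, a U5 helicase, lower (−1.29) in Eµ-PRMT5 mice than in the Eµ-TCL1 mouse at an unadjusted p under 0.05, with a list median of 0.77. Of the 24 hnRNP and related genes, Hnrnpdl (1.49) and Pcbp1 (1.05) were higher and none was lower, with a median of 0.81, and Hnrnpdl was also higher in Eµ-PRMT5/TCL1 mice (1.22). None of the 13 SR kinases and partners or of the 15 genes of the Prp19-associated complex (NTC) and the catalytic steps reached that threshold, with medians of 0.46 and 0.47. Of all genes tested by edgeR, 1.96% were higher and 4.82% lower at that threshold in Eµ-PRMT5 mice than in the Eµ-TCL1 mouse. For Eµ-PRMT5/TCL1 mice these backgrounds were 1.75% and 4.33%. Whether the genes named from the lists exceed these shares was not tested. Between the replicated genotypes, 0 of the 84 genes of the 5 lists had an unadjusted p under 0.05 (backgrounds 0.957% higher and 1.21% lower). The list medians there were −0.32 to −0.14. The core Sm median of 1.31 over the Eµ-TCL1 mouse was thus the largest of the subfamilies and of these lists, a description for which no test was made.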

How the data were processed

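The authors deposited whole-number read counts per gene symbol for 8 bulk RNA-seq libraries of splenic B cells, isolated with a pan-B kit, with no normalisation and no pooling. By their methods the RNA was preamplified from a low input and sequenced as paired ends, whereas the labels describe a stranded mRNA kit, so the library type is uncertain, as is whether reads were counted by strand. The submitters' processing notes name GRCm38, Subread, featureCounts and DESeq2 1.20.0, and the aligner settings and annotation were not given in the sources used here. Rows with an empty value (NA) in any library were left out of the main fit, since its meaning was not given and other cells hold 0.

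Counts of 14072 symbols with a value in all 8 libraries were scaled by TMM and filtered by expression with edgeR 4.0.16 in R 4.3.3, leaving 13173 genes. They were tested by 1 quasi-likelihood model over the 3 genotypes, with Benjamini-Hochberg adjustment over all genes tested (biological coefficient of variation 0.483). DESeq2 1.42.0 was an alternative. Log2 CPM used a prior count of 2, and fold changes are those of the model. Groups follow the labels, and no label says whether mice came from separate litters. The code was tested on simulated data. No pair of libraries of a genotype was a duplicate, the smallest chi-square per degree of freedom being 35.8. Poisson counting error alone is 37.8% at 7 counts, the smallest of the 59 genes in a library, and 4.54% at their median of 486 counts. Molecular identifiers were not described, so preamplified reads are not independent molecules and the error of a level can be larger.

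The genes and gene lists were chosen with earlier results of these data known. Named genes were all core Sm and U2af genes, in each other subfamily the gene of highest CPM and the 2 of largest fold change between the replicated genotypes, genes under an unadjusted p of 0.05 (at most the 5 of smallest p in each comparison with the Eµ-TCL1 mouse), and Prmt5, Wdr77 and Clns1a. Other genes named were chosen after their values were seen. Protein sequences were planned as the source of RG and RS counts, and codon pairs in 1 GENCODE vM21 transcript per gene were counted in their place. Near-identical stretches were found with BLAST. A B cell marker and a coding stretch are not reported here. Alternatives covered scaling, filters, the groups in the fit, NA counted as 0, ribosomal protein genes left out, each mouse left out and a replicate block.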

Additional observations from a re-analysis of the deposited data

Results flagged for a closer look

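Within the 4 Eµ-PRMT5 mice, 69 results (the 59 genes, Prmt5, Wdr77, Clns1a and the 7 subfamily levels) were searched for 1 mouse that stood far from the remaining 3. Such a mouse appeared in 6 of them. Chance would give about 1 in 20, here 3.5, if the results were independent. They share the same 4 mice, and the subfamily levels are averages of the same genes, so setting 6 against 3.5 decides nothing about chance. Eµ-PRMT5 mouse 1 was far above the others for Srsf2, at 280 CPM against 41.5 to 61.9 CPM, and for Srsf9, at 91.5 CPM against 32.2 to 34.2 CPM. This is the mouse with a value for the fewest symbols. Eµ-PRMT5 mouse 4 was far above the others for Snrpg, at 123 CPM against 42.8 to 52.1 CPM, and for Lsm4, at 232 CPM against 113 to 124 CPM. This mouse also had the highest summed proliferation markers. Eµ-PRMT5 mouse 3 was above the others for Lsm11, at 46.7 CPM against 15.6 to 20.6 CPM, and below them for Srsf10, at 89.6 CPM against 191 to 211 CPM. The paper describes different histology for mice 3 and 4. What separates these mice was not tested.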

How the results depend on the processing

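No gene of the 59 was called in any of the 3 comparisons under any alternative. The median fold change of the 59 kept its sign in all of them, from −0.35 to −0.02 between the replicated genotypes, 0.55 to 1.14 for Eµ-PRMT5 and 0.33 to 0.85 for Eµ-PRMT5/TCL1 over the Eµ-TCL1 mouse. Against that mouse, the number of genes higher at an unadjusted p under 0.05 was 2 to 14 (0.972% to 4.90% of all genes) and 0 to 17 (1.04% to 8.68%), the 17 with only the groups compared. The number of genes lowest in the Eµ-TCL1 mouse was 22 to 36 of 59 (8.15% to 17.8% of all genes), and the number highest in it was 4 with library size only, 1 with RLE scaling, 1 with NA counted as 0 and 2 to 4 with a mouse left out (18.5% to 27.6% of all genes). With a mouse left out, 0 to 3 genes had all Eµ-PRMT5/TCL1 mice above all Eµ-PRMT5 mice (2.41% to 7.28% of all genes), and 0 to 10 had all below (2.45% to 5.94%). The level of the Eµ-TCL1 mouse minus that of Eµ-PRMT5 mice was smaller in size with library size only in every subfamily. It was −0.48 and then −0.22 for PRP genes, and −1.36 and then −1.11 for core Sm genes. For Lsm genes it was −0.34 and then −0.09, and for U2af genes −0.39 and then −0.14. The alternatives on the spread among mice and on the mouse with the highest value were chosen after seeing the data.

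Mice with the same number came from different animals, and their deviations correlated at 0.02, 0.11 and 0.16, so the numbers were not taken as pairs. With a replicate block over mice 1 to 3 of both genotypes, 0 genes were called and the median was −0.02, and without the block in the same 6 mice, an alternative added after seeing the data, it was −0.03. Fold changes between the replicated genotypes that reversed with the replicate block were 0.18 for Snrpb, 0.35 for Snrpd1, 0.19 for Snrpd2, 0.34 for Snrpe, 0.48 for Snrpf, 0.28 for Snrpg, 0.14 for Clns1a and 0.058 for Prmt5. Without the block in those 6 mice they were 0.16 for Snrpb, 0.30 for Snrpd1, 0.17 for Snrpd2, 0.33 for Snrpe, 0.44 for Snrpf, 0.28 for Snrpg and 0.093 for Clns1a. Fewer mice, without Eµ-PRMT5 mouse 4, entered both fits. Snrpd3 was −0.013 with DESeq2, −0.013 with RLE scaling and −0.024 with NA counted as 0, and Snrpe was 0.030 with upper-quartile scaling and 0.00017 with library size only. With a mouse left out, the ranges that crossed 0 were −0.32 to 0.095 for Clns1a, −0.11 to 0.29 for Lsm14a, −0.31 to 0.00028 for Prpf8, −0.25 to 0.17 for Snrpb, −0.70 to 0.30 for Snrpd1, −0.44 to 0.17 for Snrpd2, −0.23 to 0.55 for Snrpd3, −0.23 to 0.33 for Snrpe, −0.48 to 0.44 for Snrpf, −0.37 to 0.28 for Snrpg, −0.35 to 0.019 for U2af1, −0.12 to 0.50 for U2af1l4 and −0.15 to 0.28 for U2af2. The cause was not tested. With 1 Eµ-TCL1 mouse, genotype and mouse cannot be told apart.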
